A study of Mus musculus with 2 samples.

Results

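The nuclei described here are those of the E15.5 mouse kidney with the most accessible chromatin at 8 genes of early nephron commitment, Lhx1, Wnt4, Jag1, Dll1, Pax8, Fgf8, Papss2 and Ccnd1. They were chosen by these genes alone. A nucleus was eligible with 4000 to 100000 counts in the peak table of its library. It was chosen with a count for at least 4 of the 8 genes and a place in the top 3% of eligible nuclei, both libraries pooled, by the share of its counts that fell in the peaks of those genes, taken over each gene body and the 2 kb upstream. Of 23004 barcodes in all, 20924 were eligible and 331 were chosen. The working name of these nuclei was early committing nephron nuclei. The data bore it out in part for the wild-type library and hardly at all for the mutant one in the checks that follow, so they are called chosen nuclei here.

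The study asked how a Wilms tumour-associated mutation of Enl, a chromatin reader of acetylated histones, alters the fate of cells in the embryonic kidney. Accessibility was measured by single-nucleus ATAC-seq (snATAC-seq), which counts the cuts of a transposase in open chromatin. There were 2 libraries, 1 per genotype. Enl-WT kidneys were Enl+/+ Wt1 GFPCre/+, and Enl-T1 kidneys were Enl flox-T1/+ Wt1 GFPCre/+, which carry 1 mutant allele from which the T1 insertion is expressed once Cre has acted. Both groups carried the Wt1 GFPCre knock-in, which disrupts 1 copy of Wt1, a gene of the nephron lineage itself, and drives Cre in nephron and stromal lineages. Mice were on the B6 background, and the sources used here do not say how many embryos went into a library. With 1 library per genotype no p-value can be given for any comparison, since nuclei of 1 library are not replicates. A difference between the libraries cannot be told apart from a difference between the genotypes. The intervals below are 95% intervals and cover counting error only. The T1 insertion could not be checked, because peak counts hold no sequence of the transcript.

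As background, nephrons form from Six2+ progenitors of the cap mesenchyme. A Wnt signal from the ureteric bud makes some of these cells switch on Wnt4, Fgf8, Pax8 and Lhx1. These cells turn into an epithelial renal vesicle and then into comma- and S-shaped bodies. There the Notch ligands Jag1 and Dll1 and factors such as Pou3f3 and Irx3 pattern the proximal and distal segments, while the progenitor genes Six2 and Cited1 are turned off. Several of the marker genes are used again later: Jag1, Pax8 and Papss2 in tubules, Lhx1 and Pax8 in the ureteric epithelium, and Ccnd1 in cycling cells of many kinds.

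The chosen nuclei numbered 210 of 9270 eligible in Enl-WT (2.27%, interval 1.97 to 2.59) and 121 of 11654 in Enl-T1 (1.04%, interval 0.862 to 1.24). The libraries differed in depth, with a median of 14893 counts per eligible nucleus in Enl-WT and 9023 in Enl-T1, and the rule asks for counts in 4 genes, which a deeper nucleus meets more easily. Of eligible nuclei, 16.4% in Enl-WT and 3.35% in Enl-T1 had a count for at least 4 markers, whereas the shares in the top 3% by marker density alone were close, 2.93% of Enl-WT (272 nuclei) and 3.05% of Enl-T1 (356 nuclei). The chosen nuclei themselves had a median of 15861 counts in Enl-WT (range 6516 to 26389) and 9633 in Enl-T1 (range 4078 to 21904). The cut in marker density lay at 1.02 per mille of a nucleus' counts. The 3 nuclei just inside held 1.01849, 1.01864 and 1.01937 per mille, and the 3 just outside held 1.01845, 1.01784 and 1.01755, so no gap separated them. Barcodes that looked like simulated doublets made up 8 of the chosen nuclei in Enl-WT (3.81%) and 14 in Enl-T1 (11.6%), against 7.71% and 10.8% of eligible nuclei. The libraries shared 169 barcode sequences, of which 3 belonged to a chosen nucleus and 0 were chosen in both.

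Most chosen nuclei rested on few markers and few counts. In Enl-WT, 84 of them had counts in 4 markers, 80 in 5, 35 in 6, 10 in 7 and 1 in all 8. In Enl-T1, 90 had counts in 4 markers, 28 in 5, 2 in 6, 1 in 7 and 0 in 8. The marker counts per nucleus ranged from 9 to 31 with a median of 19 in Enl-WT, and from 7 to 31 with a median of 12 in Enl-T1. A DNA fragment gives up to 2 counts, so a median chosen nucleus of Enl-T1 was picked on very few fragments.

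The levels of the 8 markers in the chosen nuclei follow from the choice and are given as a description, in CPM, counts scaled to the same total. For the markers, here and where they are left out in turn, CPM was taken over all counts in the peaks of a library, as in the rule. For all other genes and regions it was taken over the regions that have a peak in both libraries. CPM values sum over all regions of a gene and are not scaled by length, so they are compared between groups of nuclei and not between genes. The transcription factor Lhx1, needed for the renal vesicle to form, had 75.2 CPM in chosen nuclei of Enl-WT against 15.9 in its other eligible nuclei, and 52.8 against 11.3 in Enl-T1. Wnt4, the signal that drives the mesenchyme to become epithelium, had 133 against 41.8 CPM in Enl-WT and 196 against 48.5 in Enl-T1. Pax8, a paired-box factor of the nephric lineage, had 246 against 58.1 CPM in Enl-WT and 205 against 43.1 in Enl-T1. These 3 genes were thus higher in chosen nuclei of both libraries, as the rule requires.

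Among the signals and their partners, the Notch ligand Jag1 had 308 against 98.1 CPM in Enl-WT and 317 against 101 in Enl-T1. The other Notch ligand, Dll1, had 97.9 against 23.4 CPM in Enl-WT and 103 against 19.8 in Enl-T1. Fgf8, which keeps early nephron cells alive, had 37.6 against 15.0 CPM in Enl-WT and 33.6 against 6.96 in Enl-T1. Jag1 was the marker met most often, with a count in 92.9% of chosen nuclei in Enl-WT against 95.04% in Enl-T1, and Fgf8 was among the rarest, at 23.8% and 17.4%.

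The other 2 markers depended on the peaks counted or were higher in Enl-T1. Papss2, an enzyme that makes the sulphate donor, had 113 CPM in chosen nuclei of Enl-WT but 36.9 in those of Enl-T1, and a count in 54.3% and 17.4% of them. Cyclin D1, encoded by Ccnd1, was at 190 CPM in Enl-WT against 299 in Enl-T1, and a count in 76.7% and 86.8%. The peak lists differ at these genes, since peaks were called in each library alone. Papss2 had 8 peaks in Enl-WT and 1 in Enl-T1, and 74.2% of its counts in chosen nuclei of Enl-WT lay in peaks that Enl-T1 did not have. Pax8 had 7 and 3 peaks, Fgf8 2 and 1, Dll1 2 and 1, and Jag1 7 and 8. In all, Enl-WT had 34 marker peaks and Enl-T1 had 22. Over regions that have a peak in both libraries, Papss2 had 33.4 CPM in chosen nuclei of Enl-WT against 38.8 in Enl-T1, so the difference given above was one of peak lists. On that scale Lhx1 had 86.2 against 55.5 CPM, Ccnd1 218 against 315 and Pax8 211 against 215. Of the marker counts that chose nuclei, 15.9% in Enl-WT and 0.607% in Enl-T1 lay in peaks of 1 library only.

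This bears on the share of nuclei chosen. With only marker peaks that both libraries have, the shares were 1.31% in Enl-WT (121 nuclei, interval 1.08 to 1.56) and 1.25% in Enl-T1 (146 nuclei, interval 1.06 to 1.47), which could not be told apart by counting error. Thinned to 4000 counts per nucleus, the rule chose 0.313% in Enl-WT (29 nuclei, interval 0.210 to 0.449) and 0.163% in Enl-T1 (19 nuclei, interval 0.0982 to 0.254). These intervals overlapped. The share was higher in Enl-WT in 17 of 17 other settings of the rule, with intervals apart in 13, and these settings use largely the same nuclei.

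**Figure D1:**
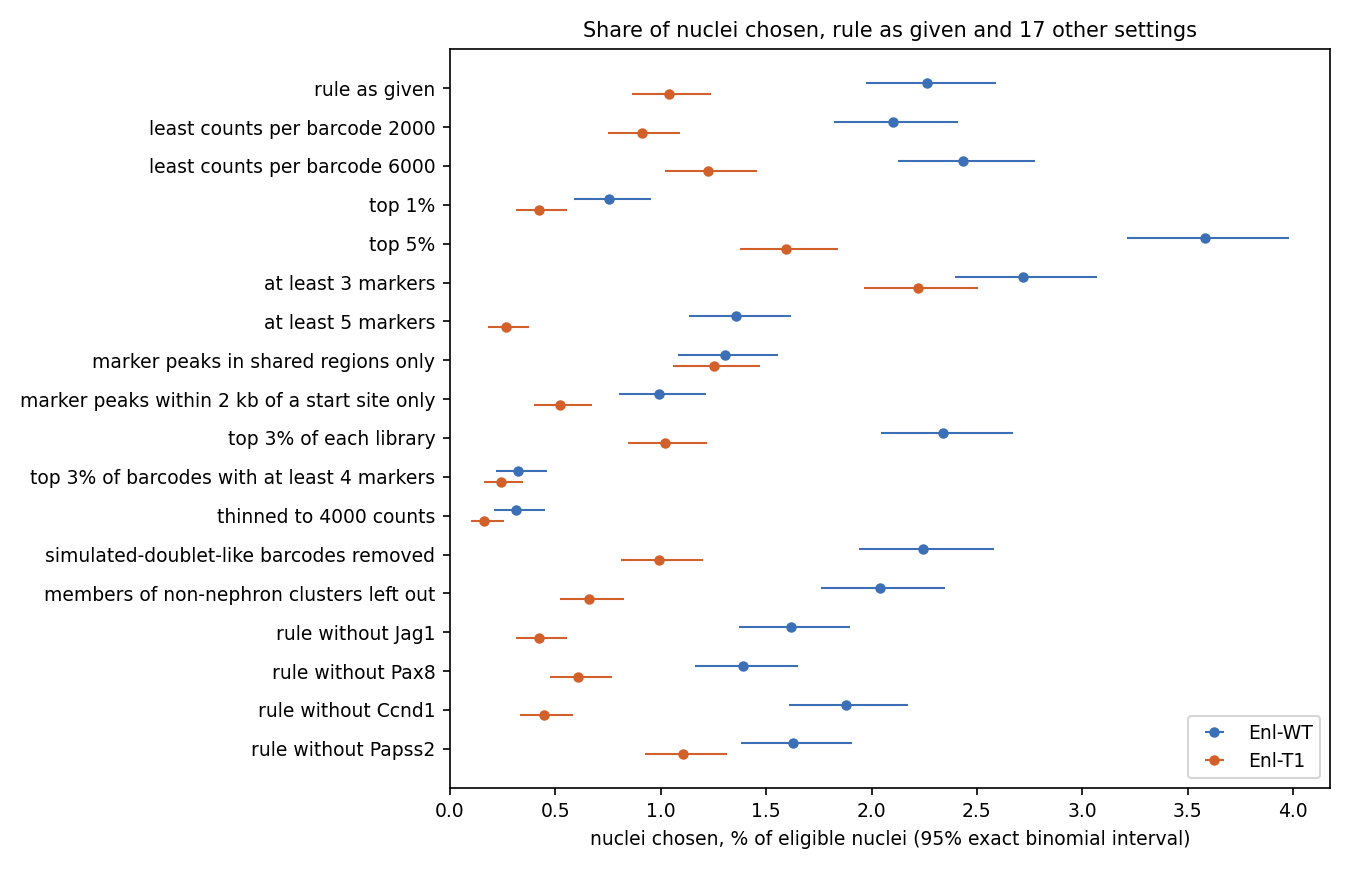
Share of eligible nuclei chosen (x axis, percent, linear scale) under the rule as given and under 17 other settings (y axis). Points are Enl-WT (blue) and Enl-T1 (orange), 1 library each, with 95% exact binomial intervals. Enl-WT lay above Enl-T1 in all settings, but with marker peaks common to both libraries the values were 1.31% and 1.25% and their intervals overlapped.

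To see which kinds of nuclei were chosen, all nuclei were clustered on accessibility outside the marker regions, and each cluster was named after the marker list with the most accessible genes in it. In Enl-WT the chosen nuclei came from tubule and progenitor clusters. Cluster 11, proximal tubule-like, gave 65 of its 712 eligible nuclei (9.13%, interval 7.12 to 11.5). Cluster 13, which best met the distal tubule and loop list, and cluster 14, distal tubule and loop-like, gave 43 and 29 nuclei, 9.29% and 5.31% of their eligible nuclei. Cluster 10, nephron progenitor-like, gave 35 (3.69%), and cluster 3, also progenitor-like but with the loop gene Umod among its leading genes, gave 7 of 1299. The name of cluster 13 is unsure, because its score for the early nephron list, 1.04, was close to that for the distal list, 1.11, and its leading genes, such as the proximal amino acid transporter Slc6a19, were mostly those of cluster 11. It is therefore called by its number.

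In Enl-T1 the largest group came from a cluster that Enl-WT hardly had. Cluster 0, progenitor-like and made of 3647 Enl-T1 nuclei and 1 of Enl-WT, gave 57 nuclei at a rate of 1.56%. Cluster 5, ureteric epithelium-like, gave 20 (2.98%) beside 13 in Enl-WT (2.43%). Cluster 13 gave 11 (6.32%) and the proximal-like cluster 11 gave 1 of the 11 eligible nuclei it had in Enl-T1. A cluster that is nearly all from 1 library may be that library rather than a kind of cell, so progenitor-like nuclei are compared by cluster and not between the libraries.

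By class, proximal-like nuclei were 30.95% of the chosen in Enl-WT and 0.826% in Enl-T1, against 7.68% and 0.0944% of eligible nuclei. Clusters 13 and 14 held 34.3% (interval 27.9 to 41.1) and 11.6% (interval 6.47 to 18.7) of the chosen, against 10.9% and 1.91% of eligible nuclei. Ureteric-like nuclei, which belong to the collecting system and not to the nephron, were 7.62% and 26.4% (interval 18.8 to 35.2) of the chosen, against 9.99% and 15.3%. Under the rule as given, the rate at which nuclei were chosen within these classes was near equal in the libraries. It was 9.13% and 9.09% of proximal-like nuclei, the latter 1 of 11, 7.14% and 6.28% of clusters 13 and 14, and 1.73% and 1.79% of ureteric-like nuclei. The make-up of the libraries thus differed in the same direction as that of the choice.

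Nephron-lineage clusters together, with clusters 13 and 14 among them, held 87.6% of the chosen nuclei of Enl-WT (interval 82.4 to 91.8) and 63.6% in Enl-T1 (interval 54.4 to 72.2), against 46.8% and 38.0% of eligible nuclei, so 36.4% of the Enl-T1 choice lay outside the nephron lineage. Of nephron-lineage nuclei 4.24% and 1.74% were chosen. With marker peaks common to both libraries these rates were 2.26% and 2.06%. In Enl-WT the rate was then 4.63% of proximal-like nuclei and 2.97% (2.01 to 4.22) of clusters 13 and 14. In Enl-T1 it was 9.09% of proximal-like nuclei, 1 of 11, and 6.73% (3.81 to 10.9) of clusters 13 and 14. Ureteric-like nuclei were chosen at 1.62% and 2.24%. The Enl-WT rates thus depended on peaks that Enl-T1 did not have. The near equality within classes was seen only under the rule as given.

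**Figure D2:**
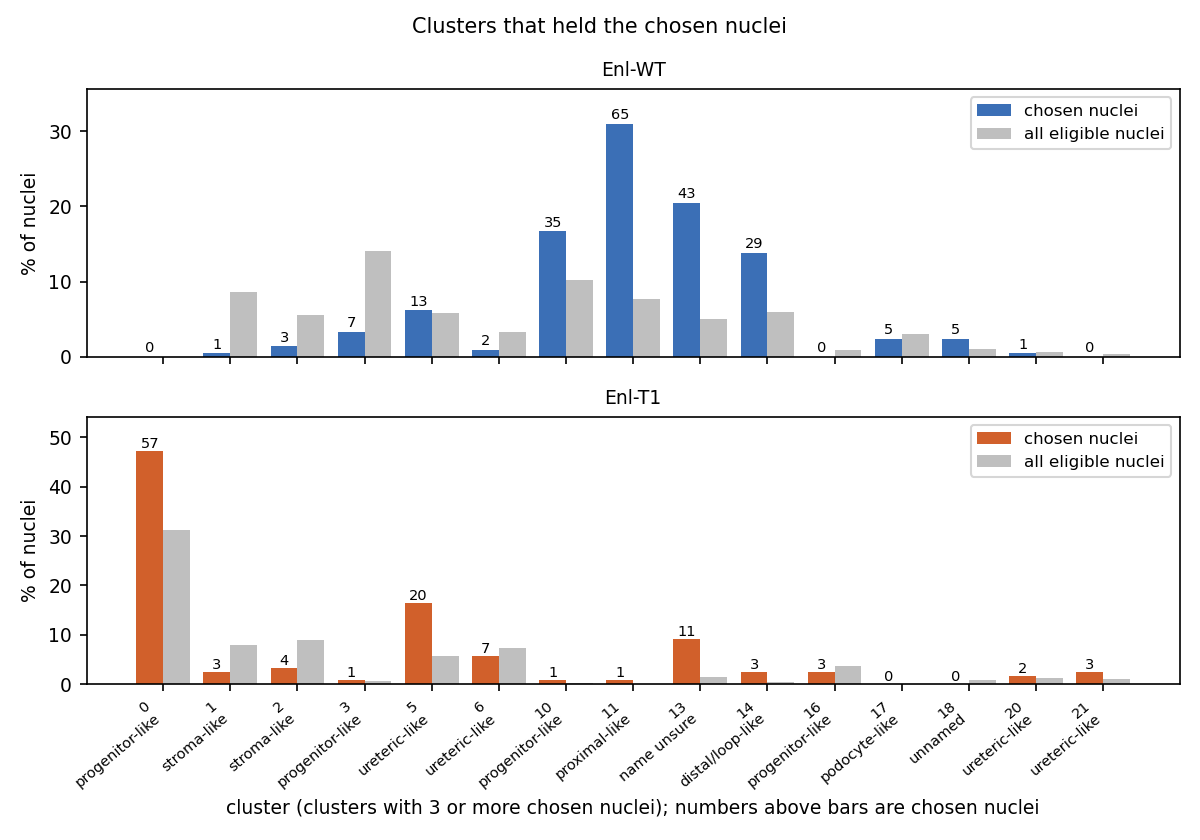
Percent of nuclei (y axis) of Enl-WT (upper panel) and Enl-T1 (lower panel, other y range) in each cluster (x axis) with 3 or more chosen nuclei. Coloured bars are chosen nuclei, grey bars are all eligible nuclei of that library, and numbers above bars are chosen nuclei. The tallest bar is the proximal tubule-like cluster 11 in Enl-WT, with 65 nuclei, and the progenitor-like cluster 0 in Enl-T1, with 57. Cluster 13 is marked as a cluster whose name is unsure.

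The label was then checked with values that the choice did not use. Each marker was left out in turn, nuclei were chosen by the other 7 with at least 3 of them counted, and the marker left out was read in the nuclei so chosen. In Enl-WT, 6 of 8 markers left out were higher in the chosen nuclei than in other eligible nuclei, with an interval above 0. Lhx1 was higher by a log2 ratio of 1.06 (interval 0.67 to 1.43), Dll1 by 1.01 (0.68 to 1.32), Pax8 by 0.82 (0.57 to 1.05) and Papss2 by 0.78 (0.40 to 1.10). Jag1 was at 0.47 (0.28 to 0.66) and Wnt4 at 0.39 (0.11 to 0.67). The intervals of Fgf8, at 0.39, and Ccnd1, at 0.08, included 0. With marker peaks common to both libraries Papss2 stood at 0.48 (-0.32 to 1.11), no longer clear of 0, and Fgf8 at 0.80 (0.05 to 1.45). Wherever the other markers were dense in Enl-WT, these commitment genes were mostly more open as well.

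In Enl-T1 only Jag1, at a log2 ratio of 0.38 (0.11 to 0.65), and Pax8, at 0.41 (0.01 to 0.76), had an interval above 0. Lhx1 stood at -0.03, Dll1 at -0.03 and Wnt4 at -0.07. In Enl-WT 19.4% of nuclei chosen without Lhx1 had a count at Lhx1, against 11.4% of other nuclei, while in Enl-T1 these shares were 5.04% and 5.40%. Against other nuclei of the same clusters, Dll1 alone had an interval above 0 in Enl-WT, at 0.53 (0.21 to 0.83). In Enl-T1 neither Jag1 nor Pax8 did, and Fgf8, whose interval over other nuclei included 0, stood at 0.85 (0.01 to 1.57). Most of what the markers shared in Enl-WT thus went with the cluster of a nucleus. The Enl-T1 choice was hardly told apart from its library by markers left out, at a lower depth and with wider intervals than in Enl-WT.

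**Figure D3:**
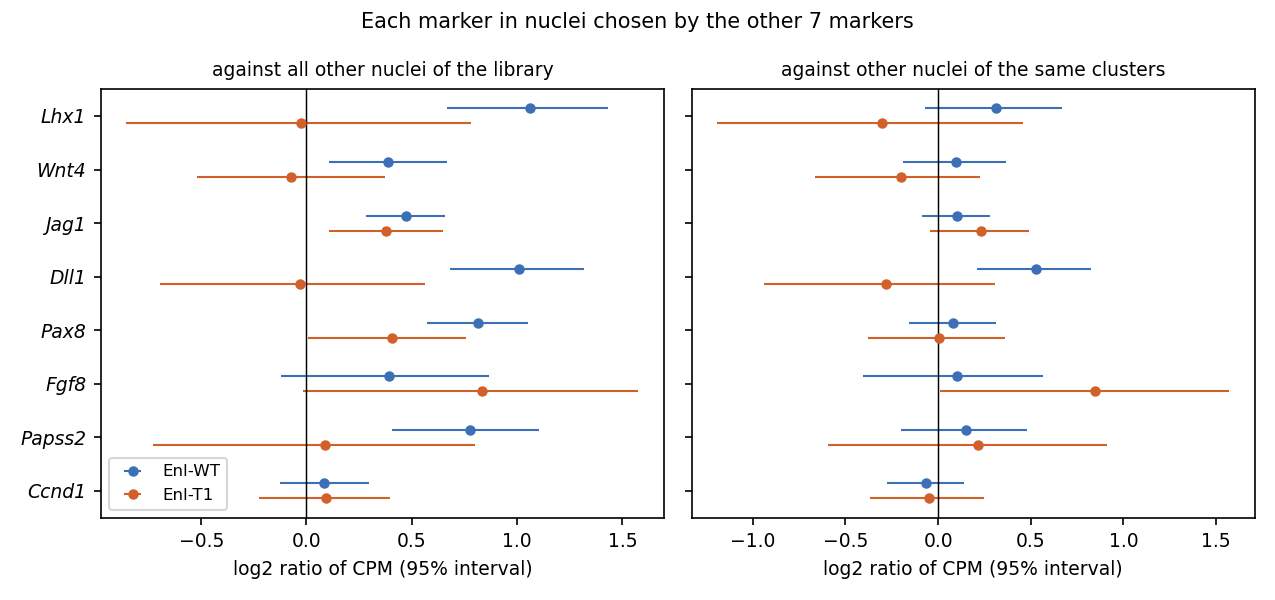
Log2 ratio of CPM (x axes) of each marker in nuclei chosen by the other 7 markers, over all other eligible nuclei of the library (left) and over other nuclei weighted to the same clusters (right). Points are Enl-WT (blue) and Enl-T1 (orange) with 95% intervals. In the left panel 6 of 8 Enl-WT intervals and 2 of 8 Enl-T1 intervals lie above 0, while in the right panel 1 of each does.

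Genes of early nephron structures that the rule did not use showed the same split between the libraries. Of 12 such genes, all 12 had a higher CPM in chosen than in other nuclei of Enl-WT, 10 with an interval above 0. Over all 14825 protein-coding genes with at least 40 counts in chosen nuclei, the interval lay above 0 for 13.2%. The median log2 ratio of the 12 genes was 0.59 (interval 0.45 to 1.04), beside 0.05 over all genes. In Enl-T1, 8 of 12 were higher and 1 had an interval above 0, against 4.67% of all genes, and the median was 0.17 (interval -0.17 to 0.58), beside 0.01 over all genes. Sox9 and Emx2 of this list are also ureteric genes, so the list does not mark early structures alone.

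Segment patterning factors were among the most open in Enl-WT. Pou3f3, a POU factor of distal segments, had 71.9 against 33.1 CPM in Enl-WT, a log2 ratio of 1.12 (0.83 to 1.41), and 34.4 against 23.0 CPM in Enl-T1, a ratio of 0.58. Irx3, an Iroquois factor of intermediate segments, had 53.2 against 28.7 CPM in Enl-WT, a log2 ratio of 0.89 (0.53 to 1.21), and 24.7 against 19.5 CPM in Enl-T1, a ratio of 0.34. Irx1, its paralog, went the other way, with 9.73 against 8.54 CPM in Enl-WT and 20.3 against 9.08 in the mutant library, for a log2 ratio of 1.16 (0.26 to 2.04). Irx1 was the 1 gene of the list with an interval above 0 in Enl-T1.

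The homeobox factor Emx2 had 78.9 against 38.4 CPM in Enl-WT and 44.1 against 29.4 in Enl-T1. Osr2, a zinc finger factor of the forming nephron, had 59.8 against 31.4 CPM in Enl-WT and 37.0 against 33.8 in Enl-T1. Sox9, a factor of proximal precursors and ureteric tips, had 57.3 against 36.9 CPM in Enl-WT and 41.4 against 46.7 in Enl-T1. All 3 were more open in the Enl-WT choice with intervals above 0, at log2 ratios of 1.04, 0.93 and 0.64, and none was in Enl-T1.

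Of the adhesion genes, Cdh4 had 229 against 163 CPM in Enl-WT and 173 against 148 in Enl-T1. Cdh6, the cadherin of early tubules, had 47.6 against 35.0 CPM in Enl-WT, a log2 ratio of 0.45 (0.06 to 0.78), and 42.3 against 56.0 in Enl-T1, a ratio of -0.40 with an interval that included 0. Among other nuclei Cdh6 was more open in Enl-T1 than in Enl-WT, by a log2 ratio of 0.68. The growth factor Bmp2 stood at a log2 ratio of 0.54 in Enl-WT and 0.20 in Enl-T1, Greb1 at 0.43 and 0.13, and the Wnt inhibitor Dkk1 at 0.52 and -0.55, the last with intervals that included 0.

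Genes of uncommitted progenitors were not lower as a group. Their median log2 ratio was -0.06 in Enl-WT and -0.01 in Enl-T1, and 0 of 9 had an interval above 0. Six2, which keeps progenitors from committing, had 36.1 against 31.6 CPM in Enl-WT and 34.4 against 32.1 in Enl-T1. Cited1, which marks the least committed progenitors, had 12.5 against 15.5 CPM in Enl-WT and 11.5 against 13.5 in Enl-T1. Eya1, the partner of Six2, had 38.6 against 39.9 and 43.2 against 39.8 CPM. At these 3 genes the chosen nuclei were near the rest of their library.

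Itga8, an integrin of the cap mesenchyme, was the exception. It had 35.8 against 67.9 CPM in Enl-WT, a log2 ratio of -0.92 (-1.33 to -0.52), and 54.7 against 77.4 in Enl-T1, a ratio of -0.50 (-1.06 to 0.01). Of the remaining 5 genes, Osr1 had 12.5 against 17.03 CPM in Enl-WT and 17.6 against 18.6 in Enl-T1, and Meox1 29.5 against 38.9 and 34.4 against 42.7. Crym, Gdnf and Sall1 had intervals that included 0 in both libraries.

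**Figure D4:**
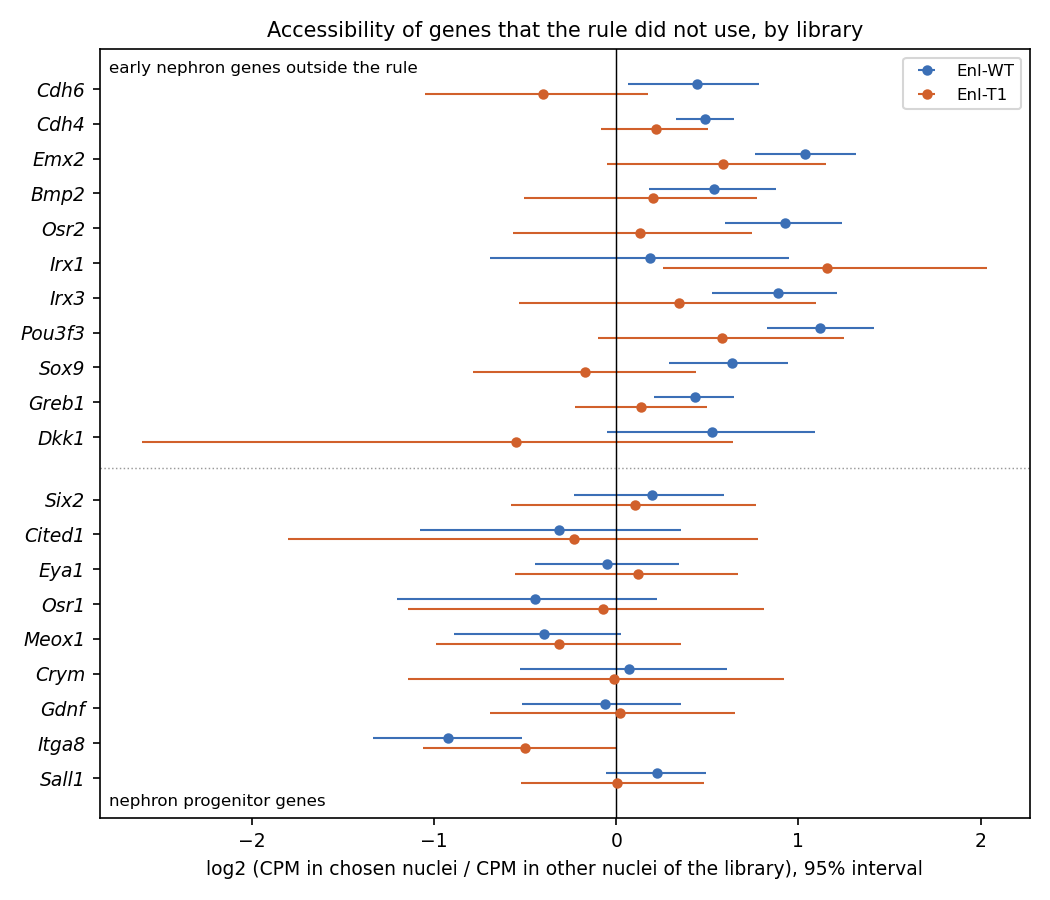
Log2 ratio of CPM in chosen nuclei over other eligible nuclei of the same library (x axis) for 11 of the early nephron genes outside the rule and 9 progenitor genes (y axis). Points are Enl-WT (blue) and Enl-T1 (orange), with 95% intervals. Of the early genes plotted, 9 Enl-WT intervals and 1 Enl-T1 interval lie above 0, and of the progenitor genes Itga8 in Enl-WT is the 1 interval clear of 0.

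Part of the Enl-WT pattern stayed when chosen nuclei were set against other nuclei weighted to the same clusters. The median of the 12 early genes was then 0.20 in Enl-WT and -0.03 in Enl-T1. The interval lay above 0 for 5 genes in Enl-WT, among them Osr2, Irx3, Pou3f3 and Sox9, and for 0 in Enl-T1. It lay below 0 for Cdh6 in Enl-T1, at -0.61 (-1.25 to -0.04). Over all genes the medians were 0.006 and 0.001. The share of all genes with such an interval was not computed, so these counts are a description. Summed over the list, the 65 proximal-like chosen nuclei of Enl-WT had 919 CPM against 729 in other nuclei of that cluster, a log2 ratio of 0.33 (0.18 to 0.49). The 72 of clusters 13 and 14 had 957 against 820 CPM, a ratio of 0.22 (0.09 to 0.36). The 42 progenitor-like ones had 716 against 611, a ratio of 0.23 (0.02 to 0.43). Both of these comparisons pooled the clusters of a class without weights. Cluster 10 gave 35 of the 42 progenitor-like chosen nuclei but held 949 of the 2338 eligible ones. Cluster 13 gave 43 of the 72 but held 463 of the 1009 eligible in clusters 13 and 14. The part of that mix in these ratios, and in those of other lists below, was not tested. Other lists were as high in some of the same nuclei. In clusters 13 and 14 the proximal list stood at 0.34 (0.09 to 0.58) and the distal list at 0.29 (0.05 to 0.53), and in progenitor-like nuclei they stood at 0.27 and 0.28 with intervals that included 0. In clusters 13 and 14 the higher level was thus not particular to early genes, although the ureteric list there stood at -0.28 (-0.50 to -0.07). In the proximal-like cluster the proximal list stood at -0.03, the distal list at 0.17 and the ureteric list at 0.11, all with intervals that included 0.

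In Enl-T1 the 62 progenitor-like chosen nuclei had 596 CPM over the early list against 661 in other progenitor-like nuclei, a log2 ratio of -0.15 (-0.37 to 0.07). The 14 of clusters 13 and 14 had 682 against 821 CPM, a ratio of -0.27 (-0.71 to 0.18). The 32 ureteric-like ones had 706 against 576 CPM, a ratio of 0.29 (0.01 to 0.57). Here too the clusters of a class were pooled without weights. The progenitor list itself was lower in the proximal-like chosen nuclei of Enl-WT than in the rest of their cluster, by a log2 ratio of -0.33 (-0.66 to -0.03), and stood at -0.06 and -0.03 in the progenitor-like nuclei of Enl-WT and Enl-T1.

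Segment genes were read in the same way. In Enl-WT the median log2 ratio over other nuclei was 0.69 for the 7 of 8 proximal tubule genes with enough counts and 0.74 for 6 distal tubule and loop genes. In Enl-T1 these medians were -0.19 and 0.46. Hnf4a, the factor of proximal tubule identity, stood at 1.18 in Enl-WT (0.90 to 1.45) and -0.93 in Enl-T1 (-2.25 to 0.11). Sim1, a factor of the distal list, stood at 1.13 (0.90 to 1.35) and 0.63 (0.12 to 1.09). Within the same clusters the medians of both lists were 0.13 and 0.23 in Enl-WT and -0.04 and 0.13 in Enl-T1. The clusters were built on accessibility outside the marker regions and named by these same lists, so a fall within clusters was partly set in advance.

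Markers of other cell types in the chosen nuclei were as follows. Stromal genes had a median of -0.34 in Enl-WT and -0.39 in Enl-T1, with 7 and 8 of 8 genes below 0, and their summed level in chosen nuclei was 357 and 391 CPM against 469 and 498 in other nuclei. Endothelial genes had -0.77 and -0.18, over the 6 of 8 genes with enough counts, all below 0 in both libraries. Ureteric genes had 0.11 and 0.30 over 8 of 9 genes, with Wnt9b, an inducing signal of the ureteric epithelium, at 0.95 and 0.99. Podocyte genes had -0.11 and -0.04 over 7 of 8. Only 3 of 8 immune and 2 of 8 erythroid genes had enough counts. Stroma-like nuclei were 1.90% of the chosen in Enl-WT and 9.09% in Enl-T1, against 31.1% and 38.3% of eligible nuclei. Without nuclei of clusters outside the nephron lineage, the early list of the Enl-T1 choice stood at -0.25 in place of 0.17.

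Signalling pathways of nephron induction were read from fixed lists. Of 12 Notch genes with enough counts, 6 had an interval above 0 in Enl-WT and 1 in Enl-T1, against 13.2% and 4.67% of all genes, with medians of 0.37 and 0.24. The coactivator Maml1 had an interval below 0 in Enl-T1, at -0.68. The receptor Notch1 stood at 0.46 in Enl-WT (0.29 to 0.64) and 0.25 in Enl-T1. Lfng, which modifies Notch receptors, stood at 0.52 (0.25 to 0.80) and 0.41, and the target Hey1 at 0.49 (0.22 to 0.74) and 0.49 (0.05 to 0.88). Nrarp, a feedback inhibitor induced by Notch, stood at 0.56 (0.22 to 0.89) in Enl-WT and -0.19 in Enl-T1.

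Of 13 Fgf genes, 7 had an interval above 0 in Enl-WT and 2 in Enl-T1, led by Il17rd, a feedback inhibitor of Fgf signals, at 0.51 (0.32 to 0.69) and 0.40 (0.06 to 0.70). Of 14 Wnt genes, 2 lay above and 2 below 0 in Enl-WT and 0 either way in Enl-T1, with medians of -0.02 and -0.12, and the share above 0 was near that of all genes. Lef1, a nuclear effector of Wnt signals, stood at 0.51 (0.20 to 0.80) in Enl-WT. Cyclin and Myc genes, read because Ccnd1 is in the rule, had medians of -0.05 and -0.12. Against other nuclei of the same clusters, 4 Notch genes and 1 Fgf gene had an interval above 0 in Enl-WT, and 1 and 0 in Enl-T1. In Enl-T1 1 Notch gene had an interval below 0. The share over all genes was not computed for this comparison. Most of the Fgf count was thus not seen within clusters, which were built on accessibility outside the marker regions.

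Beyond the lists, few genes were 2-fold higher in the chosen nuclei. Of 6535 genes outside the marker regions with at least 200 counts in chosen nuclei, 16 (0.245%) were at least 2-fold higher than in other nuclei of Enl-WT and 4 (0.0612%) in Enl-T1. Against other nuclei of the same clusters 0 (0%) were in Enl-WT and 1 (0.0153%) in Enl-T1. The 10 genes highest in both libraries, ranked by the lower of their ratios, were Slc6a19, Pde4c, Wnt9b, Map3k21, Cftr, Fermt1, Elovl7, Cited4, Elf3 and Slain1. Slc6a19, the neutral amino acid transporter of the proximal brush border, stood at 1.28 in Enl-WT and 1.12 in Enl-T1. Cited4, a transcriptional coactivator of the same family as Cited1, stood at 0.95 and 0.87, and also above other nuclei of the same clusters, by 0.51 (0.21 to 0.80) and 0.56 (0.04 to 1.02).

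The comparison of genotypes asked how chosen nuclei of Enl-T1 differed from those of Enl-WT. Since the choices drew on different clusters, these values compare different mixes of nuclei as well. The median log2 ratio of Enl-T1 over Enl-WT was -0.58 (interval -1.11 to -0.17) for the 12 early genes, with 11 of 12 below 0. Over all genes it was -0.07, with 8467 of 14824 below 0. The interval lay below 0 for 5 of 12, against 5.63% of all genes, and above 0 for 0 of 12, against 3.77%. In other eligible nuclei the median of the same genes was -0.04. The progenitor list stood at 0.14 (interval -0.29 to 0.49), with 0 of 9 intervals clear of 0.

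Irx3, with 53.2 CPM in chosen nuclei of Enl-WT but 24.7 in Enl-T1, stood at -1.11 (-2.03 to -0.26), Pou3f3 at -1.06 (-1.80 to -0.34), Emx2 at -0.84 (-1.53 to -0.21) and Cdh4 at -0.40 (-0.74 to -0.07). All 4 were less open in the Enl-T1 choice, with intervals below 0. Irx1 was the gene of the list above 0, at 1.06, with an interval of -0.12 to 2.34.

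**Figure D5:**
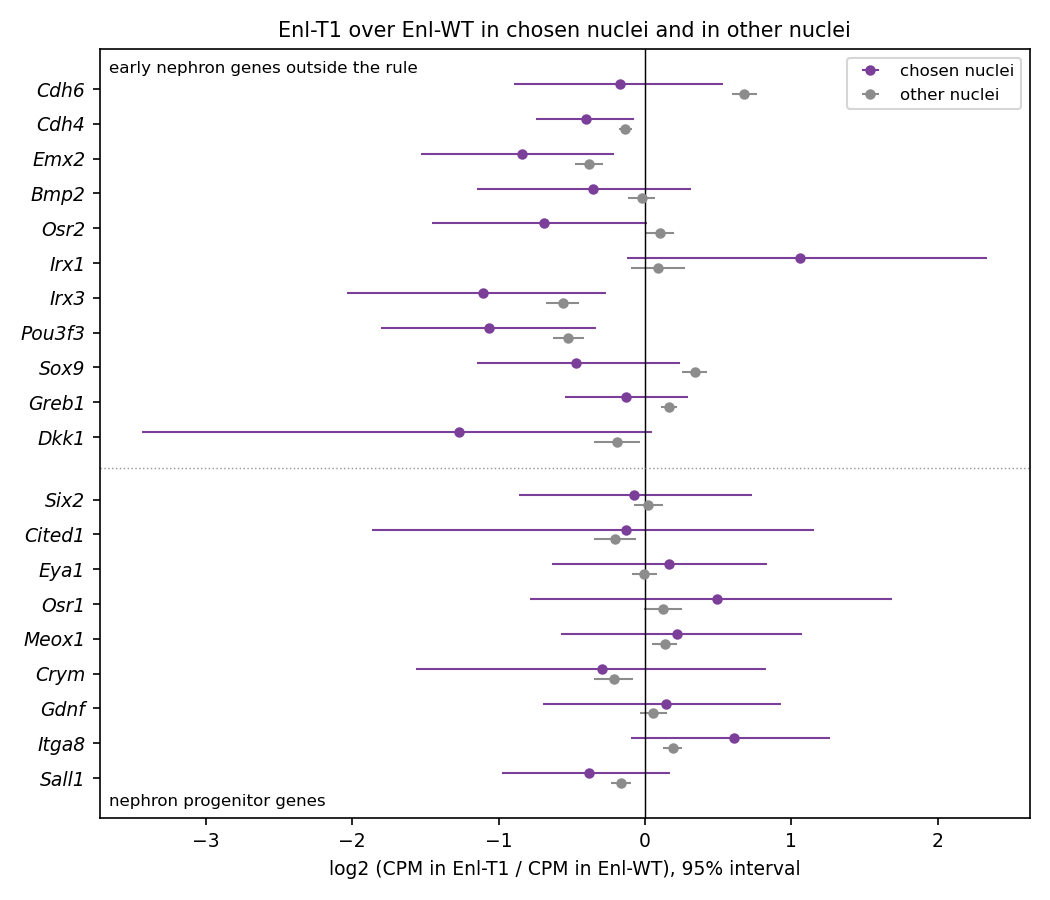
Log2 ratio of CPM in Enl-T1 over Enl-WT (x axis) for 11 of the early nephron genes and 9 progenitor genes (y axis), in chosen nuclei (purple) and in other eligible nuclei (grey), with 95% intervals. In chosen nuclei 10 of the 11 early genes plotted lie below 0, 4 with the whole interval, and Irx1 lies above 0 at 1.06.

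Among the other lists, proximal tubule genes had a median of -0.97 in chosen nuclei and -0.50 in other nuclei, and distal genes -0.86 and -0.22. The choice held 65 and 1 proximal-like nuclei and 72 and 14 nuclei of clusters 13 and 14. Notch genes had -0.27, with 9 of 12 below 0 and Nrarp at -0.99 (-1.82 to -0.15), and Fgf genes -0.20. Of all 14824 genes with a ratio in chosen nuclei, 8467 lay below 0 and 6357 above. Wnt genes had a median of 0.06 in chosen and 0.09 in other nuclei, with 9 of 14 above 0 in chosen nuclei. Their interval lay above 0 for 2 of 14, against 3.77% of all genes. Of Wnt targets, Axin2 stood at 0.66 (0.21 to 1.08) in chosen and 0.41 in other nuclei. Sp5 stood at -1.02 in chosen nuclei, with an interval that included 0. Among cyclins and their partners, Ccnd3 stood at 0.54 (0.21 to 0.84) and Cdk4 at -0.69 (-1.25 to -0.20). The 33 of 39 Hox genes with enough counts had a median of 0.06 in chosen and 0.08 in other nuclei. Of them Hoxa4 stood highest, at 1.33 (0.71 to 1.98) in chosen and 0.55 in other nuclei. In chosen nuclei the interval lay above 0 for 4 of 33 Hox genes and below 0 for 2, against 3.77% and 5.63% of all genes. In other nuclei 22 of the 33 lay above 0, against 5875 of all 14825 genes. The median of the Hox genes was thus near 0 in both sets of nuclei, while single Hox genes lay apart from it.

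Over 6542 genes with at least 200 counts in chosen nuclei, 9 (0.138%) were at least 2-fold higher and 51 (0.78%) at least 2-fold lower in Enl-T1. In other nuclei 0 (0%) of the same genes were higher and 0 (0%) lower by 2-fold. The other nuclei hold far more counts and so spread less: the 5th and 95th percentiles of the log2 ratio were -0.64 and 0.44 in chosen nuclei and -0.26 and 0.16 in other nuclei. Of these 60 genes, 1 had an interval wholly past 2-fold, Hnf4a, at 81.3 CPM in Enl-WT but 12.3 in Enl-T1, for a log2 ratio of -2.72 (-4.07 to -1.63), and -0.61 in other nuclei. The chosen nuclei held 65 proximal-like nuclei in Enl-WT and 1 in Enl-T1. Against other nuclei of the same clusters Hnf4a stood at 0.11 (-0.16 to 0.37) in the Enl-WT choice and at -0.80 (-2.11 to 0.24) in the Enl-T1 choice. The part of the cluster mix in the Hnf4a ratio was not tested.

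The lowest after Hnf4a were Smim1 at -1.39, Dgat2, an enzyme of triglyceride synthesis, at -1.37 (-1.94 to -0.83), and Tfrc, the transferrin receptor, at -1.36. Kcnj10, Stx2, Neu1, Arhgef16, Csad and 0610040J01Rik followed, from -1.32 to -1.19. The highest were Tnr at 1.39 (0.85 to 1.94), at 39.96 CPM in Enl-WT against 105 in Enl-T1, Ikzf3 at 1.32 (0.79 to 1.85) and the netrin receptor Dcc at 1.29. Ccbe1, Phactr3, Lhfp, Dchs2, Angpt1 and Socs6 followed, from 1.18 to 1.02. Tnr and Dcc are genes of the nervous system, and Tnr stood at -0.04 in other nuclei. In other nuclei 8 of the 9 higher genes and 48 of the 51 lower ones had the same sign. Of all 14825 genes with at least 40 counts in chosen nuclei, 5875 lay above 0 in other nuclei and 8950 below. The median of the 6542 genes there was -0.05.

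Single regions were read with a lower minimum than genes. Of 16814 regions outside the marker genes with at least 60 counts in chosen nuclei and a sequence to read, 1101 were at least 2-fold higher than in other nuclei in Enl-WT, 813 in Enl-T1 and 347 in both. Of all these regions 76.3% lay within 2 kb of a start site, but of the regions 2-fold higher in both libraries only 23.1% did. The filter of 60 counts was set on the chosen nuclei, so a region that is open mainly there passes more easily, and these counts are a description. Of the 10 regions highest in both libraries, 5 carried letters of the motifs searched, and the 4 with HNF1 or TAATTA letters are shown as the 300 bases around the centre, on the plus strand. The other, region 7 in an intron of Sufu, held posterior HOX letters. The sequence is that of GRCm38.p6, the same coordinates as mm10. Capitals mark the letters of a motif.

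Region 1, chr17:67728682-67728981, in an intron of Lama1, a basement membrane laminin, with HNF1 letters that overlap AP-1 letters: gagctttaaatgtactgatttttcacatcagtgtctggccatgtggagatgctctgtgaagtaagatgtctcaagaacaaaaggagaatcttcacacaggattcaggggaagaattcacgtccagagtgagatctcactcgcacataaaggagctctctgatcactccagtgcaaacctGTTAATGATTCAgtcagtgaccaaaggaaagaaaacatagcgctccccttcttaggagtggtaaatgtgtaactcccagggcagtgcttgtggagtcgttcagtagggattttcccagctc
Region 5, chr19:30331918-30332217, intergenic, 99126 bp from the start of Mbl2, with HNF1 letters on the minus strand: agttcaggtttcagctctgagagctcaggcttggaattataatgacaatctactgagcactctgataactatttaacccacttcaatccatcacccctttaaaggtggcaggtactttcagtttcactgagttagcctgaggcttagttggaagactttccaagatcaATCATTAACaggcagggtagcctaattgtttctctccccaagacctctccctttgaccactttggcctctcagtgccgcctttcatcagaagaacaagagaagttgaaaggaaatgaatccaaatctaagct
Region 8, chr17:85041063-85041362, in an intron of Slc3a1, a transporter of the proximal tubule, with GATA letters on the minus strand, HNF1 and RBPJ letters: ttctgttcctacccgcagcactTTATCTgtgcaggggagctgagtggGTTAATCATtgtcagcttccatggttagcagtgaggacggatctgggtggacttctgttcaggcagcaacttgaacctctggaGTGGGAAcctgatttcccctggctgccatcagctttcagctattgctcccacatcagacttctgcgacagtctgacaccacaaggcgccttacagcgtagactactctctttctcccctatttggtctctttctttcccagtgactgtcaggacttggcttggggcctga
Region 6, chr1:119407788-119408087, intergenic, 14310 bp from the start of Inhbb, with the homeobox letters TAATTA 2 times: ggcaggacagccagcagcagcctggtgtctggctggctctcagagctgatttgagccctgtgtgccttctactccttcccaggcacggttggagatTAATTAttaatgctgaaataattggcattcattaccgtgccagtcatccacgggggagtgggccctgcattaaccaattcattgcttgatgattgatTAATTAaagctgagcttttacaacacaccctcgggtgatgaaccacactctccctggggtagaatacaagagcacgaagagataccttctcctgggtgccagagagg

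The whole region 1, chr17:67728361-67729303, had 42.7 CPM in chosen nuclei of Enl-WT against 9.13 in other nuclei and 18.5 against 3.07 in Enl-T1, log2 ratios of 2.23 (1.84 to 2.59) and 2.59 (1.56 to 3.45). Against other nuclei of the same clusters it stood at 0.75 (0.36 to 1.11) and 1.40 (0.37 to 2.26). It was the 1 region of the 10 whose interval lay above 0 in both libraries within clusters. Region 5, chr19:30331559-30332576, stood at 1.86 in Enl-WT and 2.41 in Enl-T1, region 8, chr17:85040606-85041819, at 1.83 and 2.22, and region 6, chr1:119407451-119408424, at 1.85 and 1.89. The Enl-T1 values rest on 9 to 21 counts per region over the 10. Within clusters the intervals of regions 1, 2, 6 and 9 lay above 0 in Enl-WT. Region 2, chr7:129429606-129430799, is intergenic and held none of the letters searched, at 2.51 and 1.92.

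The letters searched, on both strands, were HNF1 GTTAATNAT, HNF4 CAAAGTCCA, TCF/LEF CTTTGAT, RBPJ GTGGGAA, homeobox TAATTA, posterior HOX TTTATNG, AP-1 TGANTCA, the letters of E2F sites TTCCCGCC, and for the GATA family AGATAA. HNF1 letters stood in 214 of the 16814 regions (1.27%), in 124 of the 1101 that were higher in Enl-WT (11.3%), in 76 of the 813 in Enl-T1 (9.35%) and in 58 of the 347 in both (16.7%, interval 12.9 to 21.1). In all RefSeq promoters of the same length they stood in 263 of 32851 (0.801%). Among regions more than 2 kb from start sites HNF1 letters stood in 3.87% of all and 16.5% of those higher in both libraries. TAATTA stood in 3.43% of all regions and 18.4% of those higher in both. Among regions more than 2 kb from start sites it stood in 9.20% and 20.2%. A match of letters is a description and no sign of binding.

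Summed over all 110640 shared regions outside the marker genes with no filter on counts, the 1361 regions with HNF1 letters had 12567 CPM in chosen nuclei of Enl-WT against 8641 in other nuclei, a log2 ratio of 0.54 (0.52 to 0.56). In Enl-T1 they had 9291 against 7834 CPM, a ratio of 0.25 (0.21 to 0.29). Within clusters, which were built on accessibility outside the marker regions, the ratios were 0.054 and 0.034. Enl-T1 over Enl-WT stood at -0.44 (-0.48 to -0.39) in chosen nuclei and -0.14 in other nuclei. TAATTA regions stood at 0.02 and 0.00 over other nuclei, and the other 7 sets between -0.18 and 0.08 in Enl-WT and between -0.07 and 0.02 in Enl-T1. The HNF1 set thus had the highest ratio of the 9 sets in both libraries. Its part in the other results was not tested.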

How the data were processed

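Nuclei of E15.5 mouse kidneys were profiled by snATAC-seq in 2 libraries, 1 per genotype. The deposited tables hold whole-number counts of cut sites per peak and barcode, made by the authors with Cell Ranger ATAC 2.1.0 on mm10, with peaks called per library, so 1 fragment gives up to 2 counts. The further filters on fragments in peaks and start-site enrichment that the methods describe were not applied here. The chosen nuclei, gene lists and named genes were chosen with earlier results of these data known.

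Peaks found in both libraries (1 bp of overlap or more) were joined into shared regions, and CPM was taken over these, except that marker CPM used all peaks of a library. A gene held the regions over its GENCODE M21 body and 2 kb upstream, and overlapping genes share regions. Ratios carry exact intervals on fragments, taken as counts divided by 2, and no pseudocount (0.5 was added only in the alternative with no filter). Shares carry exact Clopper-Pearson intervals, and list medians carry order-statistic intervals. Nuclei were clustered with scikit-learn 1.9.0 (latent semantic indexing, components 2 to 30) and leidenalg 0.10.2 (15 neighbours, resolution 1) without marker regions. Doublets were marked by similarity to simulated pairs and kept. Scripts were tested on simulated data.

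Named were all markers, genes of the early and progenitor lists with at least 40 counts in chosen nuclei, examples of other lists, and the 10 genes or regions furthest out among those with at least 200 or 60 counts. Hoxa4, Nrarp, Irx1 and region 2 were singled out after their values were seen. Sequences are from GRCm38.p6 and RefSeq. Median depth was 14893 and 9023 counts per eligible nucleus. No p-value was computed. Some named genes are not reported here. Alternatives changed the rule, the shared regions, the filters and the comparison nuclei.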

Additional observations from a re-analysis of the deposited data

Results flagged for a closer look

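A gene was picked out here where its CPM in chosen nuclei over other nuclei lay on opposite sides of 0 in the libraries with both intervals clear of 0. This held for 3 of 185 named genes. Csad, an enzyme of taurine synthesis, stood at a log2 ratio of 0.44 in Enl-WT and -0.63 in Enl-T1. Dgat2 stood at 0.72 in Enl-WT and -0.54 in Enl-T1. Tnr stood at -0.79 in Enl-WT and 0.65 in Enl-T1. All 3 were named for an extreme Enl-T1 over Enl-WT ratio in chosen nuclei, which in part fixes opposite directions. With 1 library per genotype the difference was not tested.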

How the results depend on the processing

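No paired analysis was possible because each genotype has 1 library and the labels give no replicate numbers. For the same reason no library could be left out. The median Enl-T1 over Enl-WT ratio of the early list kept its sign in 20 of 21 alternatives, and was 0.13 after thinning to 4000 counts, where 3 genes had enough counts. The progenitor list stood at -0.40 there, from 1 gene. The early list over other nuclei was 0.59 in Enl-WT and 0.20 within the same clusters, and 0.17 in Enl-T1 and -0.25 without nuclei of other lineages. The HNF1-letter regions stood at 0.54 in Enl-WT and 0.25 in Enl-T1, against 0.054 and 0.034 within clusters, and 1.11 and 0.68 as the median of regions with at least 60 counts. All alternatives for the early list over other nuclei and for the HNF1-letter regions were chosen after seeing the data.

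The count of 60 genes past 2-fold became 33 with 80% reciprocal overlap of peaks, 1372 with no filter, 568 at 1.5-fold, 3 for the top 1%, 28 with shared marker peaks, 8 with marker peaks within 2 kb of start sites, 0 for the top 3% of nuclei with at least 4 markers, 0 after thinning, 114 without nuclei of other lineages, and 39, 105 and 30 without Pax8, Ccnd1 and Papss2. The held-out count of Enl-T1 was 1 with the top 3% of each library. The share chosen in Enl-WT and Enl-T1 was 0.755% and 0.42% for the top 1%, 3.58% and 1.60% for the top 5%, 2.72% and 2.22% with at least 3 markers, 1.36% and 0.266% with at least 5, 1.31% and 1.25% with shared peaks, 0.992% and 0.523% near start sites, 0.324% and 0.24% for the top 3% of nuclei with at least 4 markers, 0.313% and 0.163% thinned, 1.62% and 0.42% without Jag1, 1.39% and 0.609% without Pax8 and 1.88% and 0.446% without Ccnd1. It was 1.63% in Enl-WT without Papss2 and 0.661% in Enl-T1 without nuclei of other lineages. The cause of these shifts was not tested. The lower depth of Enl-T1 limits what its single genes can show.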
